A study of Mus musculus with 2 samples.

Results

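The 10 genes described here are 4 Ras guanyl-releasing proteins (Rasgrp1, Rasgrp2, Rasgrp3 and Rasgrp4) and 6 feedback regulators of mitogen-activated protein kinase (MAPK) signalling (Dusp1, Dusp2, Dusp4, Dusp5, Dusp6 and Spry2). They were read from the 12 probes whose RefSeq accession on the array belongs to one of these genes, out of 39424 probes that name 32448 genes or identifiers. The set was chosen by the log2 difference between the arrays, with Rasgrp1 at its head because its increase was among the largest, so the differences of the members are given as a description. Bone marrow-derived macrophages (BMDMs) came from 8-week-old male mice of the C57BL/6 background with the genotype Crif1 f/f, in which both copies of Crif1 carry sites for Cre recombinase, and the methods name no Cre for this experiment. One culture was left untreated and the other received IL-4 for 18 h. Each RNA was labelled with Cy3 and read on 1 single-colour array, so both conditions share the Crif1 f/f background and there was no replicate. The methods give a number of mice per group for the experiments in general, but the number behind each array RNA and the IL-4 concentration used for the arrays are not given in the sources used here.

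Ras is a membrane-bound switch that starts the Raf, MEK and ERK kinase cascade when an exchange factor loads it with GTP. The Rasgrp proteins are exchange factors that are drawn to membranes by diacylglycerol, the lipid made by phospholipase C below immune receptors, and they were first studied in lymphocytes, platelets and mast cells. The Dusp proteins of this set remove phosphate from MAPKs, and Spry2 restrains the steps above ERK, and genes of both kinds are induced by the pathway that they limit. In macrophages these proteins set the strength and length of signals from growth factor, Fc and Toll-like receptors.

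After IL-4, Rasgrp1, Dusp4 and Dusp2 were at least 2-fold higher, 0 members were at least 2-fold lower, and the other 7 lay under 2-fold or rest on a bound that falls short of it. By the same rule, 2.86% of all 19703 genes with a difference passed 2-fold upwards and 4.48% passed it downwards. These shares are given as background only, and nothing is read from the count of members, which were chosen on this contrast. Values are background-subtracted intensities in the scanner's arbitrary units, and a log2 difference subtracts the untreated from the IL-4 value, each relative to the 75th percentile of its array. Where the scanner software called a probe well above background on 1 array only, its difference is a bound. The dim side is then replaced by a floor, the faintest signal called well above background there (29.2 untreated and 27.9 after IL-4), unless the probe itself was brighter. For such a brighter probe the value equals the measured difference and is not a lower limit. With 1 array per condition no p-value is given and nothing here covers the spread between cultures. Levels were compared between the arrays for the same probe and not between probes.

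Of all spots for genes, 59.8% were well above background untreated and 57.4% after IL-4. The negative control spots reached an intensity of at most 19.9 untreated and 16.2 after IL-4. Each member probe was printed in 1 spot, 0 of which carried an outlier flag and 0 of which were saturated. All 12 spots were positive and significant against the local background on both arrays by the software's weaker flag, including those that were not well above background. Of the markers fixed for macrophages, 7 of 8 were matched to a probe, and these 7, among them Adgre1 (F4/80) and Csf1r, were well above background on both arrays. The 4 IL-4 response genes Arg1, Retnla, Chil3 and Mrc1 were all at least 2-fold higher on the IL-4 array.

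Rasgrp1 (NM_011246) encodes the exchange factor that couples diacylglycerol and calcium to Ras in T cells and mast cells. Its probe had an intensity of 16.2 with a software error of 6.55 on the untreated array and 842 with an error of 84.4 on the IL-4 array. The untreated spot was not well above background and lay inside the range of the negative controls, and the IL-4 spot stood far above it. The median pixel intensity before background subtraction was 84 in the untreated spot, where the brightest negative control had 82, and 979.5 in the IL-4 spot. Rasgrp1 was therefore at least 26.9-fold higher after IL-4, a bound of 4.75 on the log2 scale. With the normexp background correction the log2 difference was 3.18, so the size of the bound depends on how background is handled. The spot error of the measured difference, without the floor, was 0.42 on the log2 scale. It was taken as the median SD between repeated spots of similar signal on each array. The array has no other probe with a RefSeq accession of Rasgrp1, so no second probe checks this value.

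**Figure D1:**
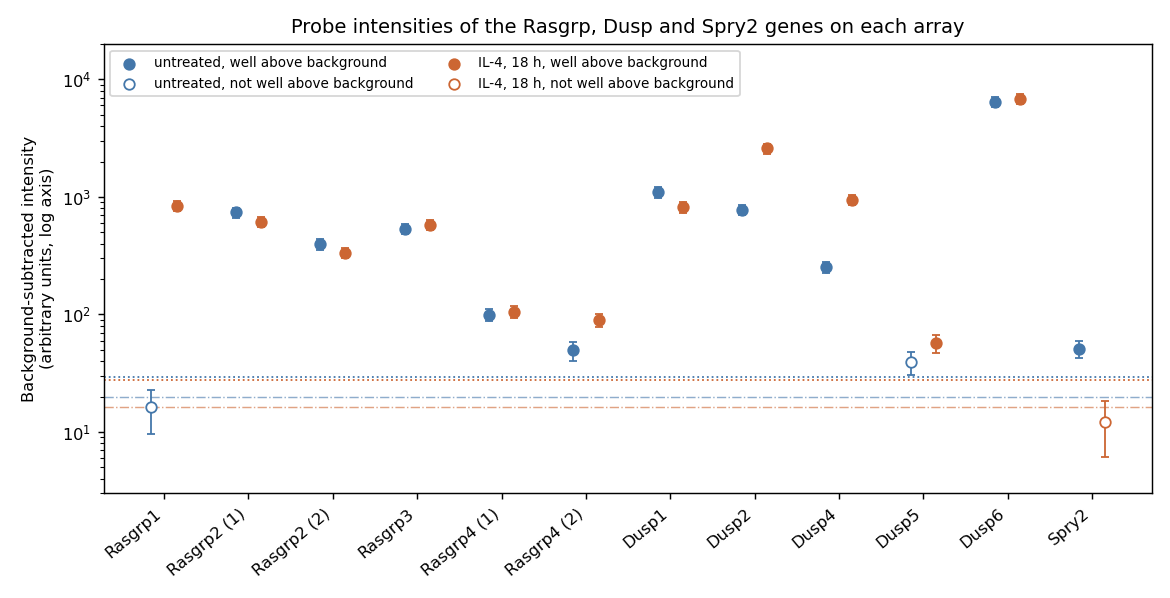
Background-subtracted intensity (arbitrary units, log axis) of the 12 member probes on the untreated array (blue) and the IL-4 array (orange), with the software's error as bars. Open circles were not well above background, dotted lines mark the lowest signal well above background and dash-dotted lines the brightest negative control of each array, and (1) and (2) are the brighter and dimmer probe of a gene. Rasgrp1 goes from 16.2 to 842, while both Rasgrp2 probes and the Rasgrp3 and Dusp6 probes lie close together on the arrays.

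The other genes that resembled Rasgrp1 most were sought among the 487 named genes that, like it, were well above background after IL-4 only. They were ranked by the gap between their log2 values, bound or measured, and the Rasgrp1 bound over these 2 arrays. Irf4, a transcription factor of lymphocytes and alternatively activated macrophages, was nearest at 4.68 on the log2 scale. Tmem26, a membrane protein, followed at 4.84. The untreated signals of Irf4 and Tmem26 lay above the floor, so their values are measured differences and not lower limits. The next nearest, by their bounds, were Cdh1, which encodes E-cadherin, at 4.16, Il13ra2, the decoy receptor for IL-13, at 3.81, and Scn3a, a sodium channel subunit, at 3.68. The gap to the Rasgrp1 bound was 0.073 for Irf4, 0.092 for Tmem26 and 0.59 for Cdh1 on the log2 scale. The likeness is to this bound of 4.75 on 2 arrays only, and without the floor Rasgrp1 was at 5.60.

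The promoters of Rasgrp1 and Dusp2 are shown because both genes passed 2-fold upwards, and that of Dusp1 because it holds the only other motif match among the members. The RefSeq table of GRCm38.p6 lists promoters for 8 of the 10 genes and not for Rasgrp4 and Dusp4. Each run gives the 250 bases before the RefSeq start of the gene, 5′ to 3′ on the strand of the gene, and capitals mark a motif match. The Rasgrp1 stretch lies at chr2:117342878-117343127 on the minus strand, that of Dusp2 at chr2:127335909-127336158 on the plus strand, and that of Dusp1 at chr17:26508473-26508722 on the minus strand.
Rasgrp1: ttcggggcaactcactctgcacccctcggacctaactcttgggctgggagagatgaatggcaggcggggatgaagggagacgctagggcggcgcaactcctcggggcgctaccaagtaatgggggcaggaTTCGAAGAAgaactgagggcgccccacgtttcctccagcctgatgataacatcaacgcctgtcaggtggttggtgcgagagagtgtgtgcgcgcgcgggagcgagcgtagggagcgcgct
Dusp2: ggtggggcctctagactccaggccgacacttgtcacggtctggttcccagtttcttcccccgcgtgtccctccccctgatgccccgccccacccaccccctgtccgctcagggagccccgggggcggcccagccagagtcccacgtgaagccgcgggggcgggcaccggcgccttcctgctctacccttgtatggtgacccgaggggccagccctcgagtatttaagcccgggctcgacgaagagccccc
Dusp1: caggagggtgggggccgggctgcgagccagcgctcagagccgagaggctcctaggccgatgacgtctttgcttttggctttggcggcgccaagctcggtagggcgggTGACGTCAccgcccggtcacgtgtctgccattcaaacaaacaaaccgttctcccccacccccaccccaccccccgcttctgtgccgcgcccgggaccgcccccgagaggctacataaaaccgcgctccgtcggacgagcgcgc

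Motifs were searched on both strands in these 250 bases of 32851 promoters. The general STAT motif TTCNNNGAA was matched in Rasgrp1, 120 to 112 bases before its start, as TTCGAAGAA, and in no other member promoter. This motif was present in 7.02% of all promoters. The form that STAT6 prefers, with 4 bases instead of 3 between TTC and GAA, was present in 5.85% of all promoters and in none of the members. The cyclic AMP response element TGACGTCA was matched in Dusp1, 143 to 136 bases before its start, and in 1.55% of all promoters. The AP-1 motif TGANTCA (6.75% of all promoters) and the ETS motif CCGGAAGT (2.88%) were found in none of the members. The matches lie in different promoters, so they do not overlap. The Rasgrp1 stretch had a GC content of 62.4% with 21 CpG dinucleotides and that of Dusp2 70.4% with 19, against medians of 52.4% and 6 over all promoters. Such values were not particular to them. Dusp1 had 68.4% with 28, Spry2 62.4% with 23, Dusp5 64% with 21 and Dusp6 56.4% with 16. The Rasgrp2 promoters had 79.6% with 31 and 67.2% with 21, and those of Rasgrp3 47.6% with 4 and 52.8% with 8. These matches describe letters in a window, and no binding was measured.

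Rasgrp2, known as CalDAG-GEFI, loads Rap1 rather than Ras in platelets and neutrophils. Its brighter probe read 738 untreated and 612 after IL-4, and its dimmer probe read 394 and 336. All 4 spots were well above background, and the probes gave log2 differences of -0.37 and -0.33, with a spot error of 0.082 and 0.092. Rasgrp2 was thus somewhat lower on the IL-4 array at both probes, by less than 2-fold. The size of this difference depends on the scaling, and it lay between -0.42 and -0.08 for the brighter probe over the scalings tried.

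Rasgrp3, which acts on both Ras and Rap1 and is known from B cells and macrophages, read 535 with an error of 54.1 untreated and 579.7 with an error of 58.5 after IL-4. Its log2 difference of 0.02, with a 95% interval of -0.39 to 0.42 from the software's error alone, changed sign with the scaling. Rasgrp4, an exchange factor of mast cells and neutrophils, had 2 probes that did not move alike. The brighter probe read 99.7 untreated and 105 after IL-4, a log2 difference of -0.03, and the dimmer probe read 49.5 and 89.3, a log2 difference of 0.75. The sign of the brighter probe also depended on the scaling, and the dimmer probe was at 0.16 with normexp and at 1.04, past 2-fold, with spike-in scaling. Their spot errors were 0.17 and 0.20. Of the 4 Rasgrp genes, 1 was at least 2-fold higher, and the 5 probes of the other 3 genes lay between -0.37 and 0.75.

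Dusp2, also named PAC-1, is a nuclear phosphatase for ERK and p38 that is induced in activated leukocytes. Its probe read 776 with an error of 77.9 untreated and 2588 with an error of 259 after IL-4. Both spots were well above background, and the IL-4 value was 3.11-fold higher, a log2 difference of 1.64 with a spot error of 0.079. Dusp4, also named MKP-2, is a nuclear phosphatase for ERK and JNK. Its probe read 252 with an error of 25.8 untreated and 947 with an error of 94.8 after IL-4. This was 3.51-fold higher, a log2 difference of 1.81 with a spot error of 0.090. The 95% intervals from the software's error alone were 1.24 to 2.04 for Dusp2 and 1.41 to 2.22 for Dusp4. Both stayed at least 2-fold higher under each of the 10 alternative settings, with ranges of 1.58 to 1.92 for Dusp2 and 1.53 to 2.10 for Dusp4.

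Dusp1 (MKP-1), a nuclear phosphatase that acts on p38, JNK and ERK and is induced early by stress and by Toll-like receptor ligands, read 1097 with an error of 110.0 untreated and 815 with an error of 81.8 after IL-4. Its log2 difference of -0.53, with a spot error of 0.077, was negative in each setting tried and ranged from -0.58 to -0.24. Dusp6 (MKP-3), the cytoplasmic phosphatase that is selective for ERK, read 6482 with an error of 648 untreated and 6838 with an error of 684 after IL-4. Its log2 difference of -0.02 had a 95% interval of -0.42 to 0.38 from the software's error, and its sign depended on the scaling. Dusp5, a nuclear phosphatase that is selective for ERK, was dim on both arrays, at 39.5 untreated, not well above background, and 56.9 after IL-4. Its untreated signal lay above the floor, so 1.34-fold higher is its measured difference and not a lower limit. The log2 value of 0.43 (spot error 0.24) had a 95% interval of -0.37 to 1.22 from the software's error alone. Of the 5 Dusp members, 2 were at least 2-fold higher and 3 were not.

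Spry2, a Sprouty protein that inhibits receptor tyrosine kinase signalling to Ras and ERK, went the other way from Rasgrp1. Its probe read 50.9 with an error of 8.0 untreated and 12.2 with an error of 6.06 after IL-4. The untreated spot was well above background, while the IL-4 spot was not and lay inside the range of the negative controls. Spry2 was at least 1.96-fold lower after IL-4, just short of 2-fold, with a log2 bound of -0.97 and a spot error of 0.28. Over the scalings tried this bound lay between -1.02 and -0.58, and it was -0.77 with normexp. Among these it passed 2-fold only when the 75th percentile was taken over probes that both arrays measured.

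**Figure D2:**
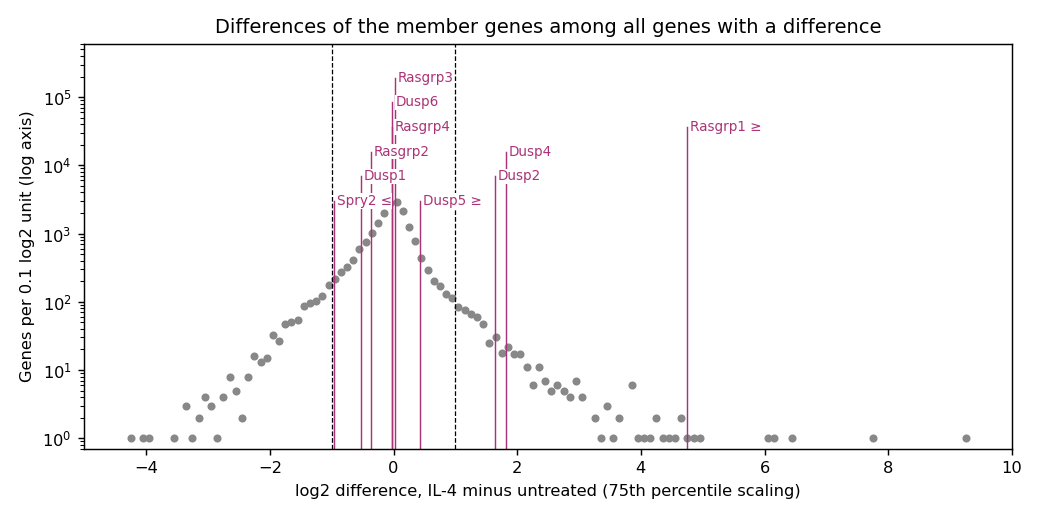
Number of genes in each interval of 0.1 log2 units (grey points, log axis) against the log2 difference, IL-4 minus untreated, with the 10 members as vertical lines and 2-fold as dashed lines. Empty intervals have no point, the signs ≥ and ≤ mark bounds, and the height of a line carries no value. For Dusp5, marked ≥, the value is its measured difference. Rasgrp1 at 4.75 lies in the sparse upper end, and Dusp2 and Dusp4 lie beyond 2-fold. The lines of the other members, among them Dusp5 and the bound of Spry2, lie between the dashed lines.

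**Figure D3:**
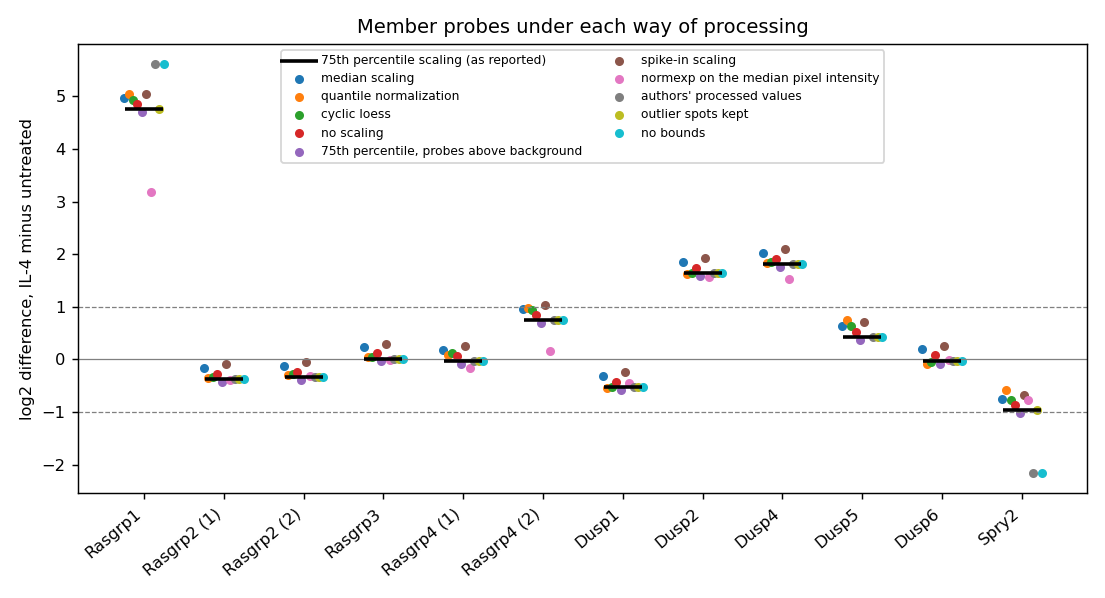
Log2 difference, IL-4 minus untreated, of the 12 member probes with the reported processing (black bars) and under the 10 alternatives (coloured points), with dashed lines at 2-fold. Rasgrp1, Dusp2 and Dusp4 stay above 2-fold in each, Rasgrp1 drops to 3.18 with normexp, and Rasgrp3, the brighter Rasgrp4 probe and Dusp6 lie on both sides of 0.

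The rest of the pathway was read from lists sorted by role. Of 100 listed genes, 99 were on the array and 89 had a difference, of which 4 passed 2-fold upwards and 3 downwards. These are 4.49% and 3.37%, against the 2.86% and 4.48% over all genes, and the median log2 difference was -0.10 against -0.03 over all genes. With median or spike-in scaling, 7 passed 2-fold upwards and 0 downwards, so the calls of Rap2a, Mapk8 and Fos depend on the scaling. Upwards, 3 passed with quantile normalization (Etv5 at 0.96), with the 75th percentile over probes that both arrays measured (Etv5 just short of 1) and with normexp (Dusp18 at 0.80). Of the 10 exchange factors and adaptors with a difference, 0 passed 2-fold in either direction. The adaptor Gab2 was at -0.66, the 2 probes of its relative Gab3 disagreed at 0.63 for the brighter and -0.98 for the dimmer, and Grb2, the adaptor that carries Sos to receptors, was at -0.15 and Sos2 at -0.24. Of the 9 Ras and Rap GTPases, 1 passed 2-fold. This was Rap2a, at 4449.8 untreated and 2125 after IL-4, a log2 difference of -1.17, while Hras was at 0.08 and Nras at 0.14. Of the 8 GTPase-activating proteins, which switch Ras off, 0 passed 2-fold, and the largest shift was that of the leukocyte gene Rasal3, at 0.93.

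Among enzymes that make, remove or respond to diacylglycerol, 1 of 12 was at least 2-fold higher. Prkcd, which encodes the diacylglycerol-dependent kinase PKC delta, read 6613 untreated and 24254 after IL-4, a log2 difference of 1.78, and its second probe gave 1.81. Dgkg, a diacylglycerol kinase, which removes diacylglycerol, read 51.0 untreated and 19.3 after IL-4, not well above background, a bound of -0.97. This bound was -1.03 with the 75th percentile over probes that both arrays measured, but -0.59 with quantile normalization and -0.72 with normexp. The other diacylglycerol kinases were at -0.32 (Dgka), -0.37 (Dgkd) and -0.28 (Dgkz), and the phospholipase Plcg2, which makes diacylglycerol, was at -0.43. With spike-in scaling Dgkz was at 0.01 and so changed sign. Of 20 genes of the kinase cascade, 1 passed 2-fold. This was Mapk8, which encodes JNK1, at -1.07 for its brightest probe, but another of its 3 probes gave 0.26, so the probes disagree. Mapk3, which encodes ERK1, was at -0.39, and the MEK genes Map2k1 and Map2k2 at -0.17 and 0.05.

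Of 11 further MAPK phosphatases with a difference, 1 was at least 2-fold higher. Dusp18, a dual-specificity phosphatase that has been placed in mitochondria, read 35.5 untreated and 158 after IL-4, a log2 difference of 2.06, and its other probe was too dim on both arrays to give a value. Of the other Sprouty and Spred genes, 4 of 7 had a difference and 0 passed 2-fold. Spry1 was at -0.55, Spred1 at 0.65 and Il17rd, an inhibitor of growth factor signalling also named Sef, at -0.75, while Spry3 and Spry4 were too dim on both arrays. Of 15 genes known to respond to ERK, 2 passed 2-fold upwards and 1 downwards. The transcription factor Egr2 read 1941 untreated and 16338 after IL-4, a log2 difference of 2.97, and Etv5 was at 1.05. Fos was at -1.04, and Egr1, a classical immediate early target of ERK, was at 0.01. With median and spike-in scaling 4 of the 15 passed upwards, with Ier3 at 1.05 and 1.12 and Myc at 1.04 and 1.12. Only 1 did with quantile normalization and with the 75th percentile over probes that both arrays measured. Downwards, 0 passed with median, spike-in or no scaling, with normexp or with flagged spots kept.

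**Figure D4:**
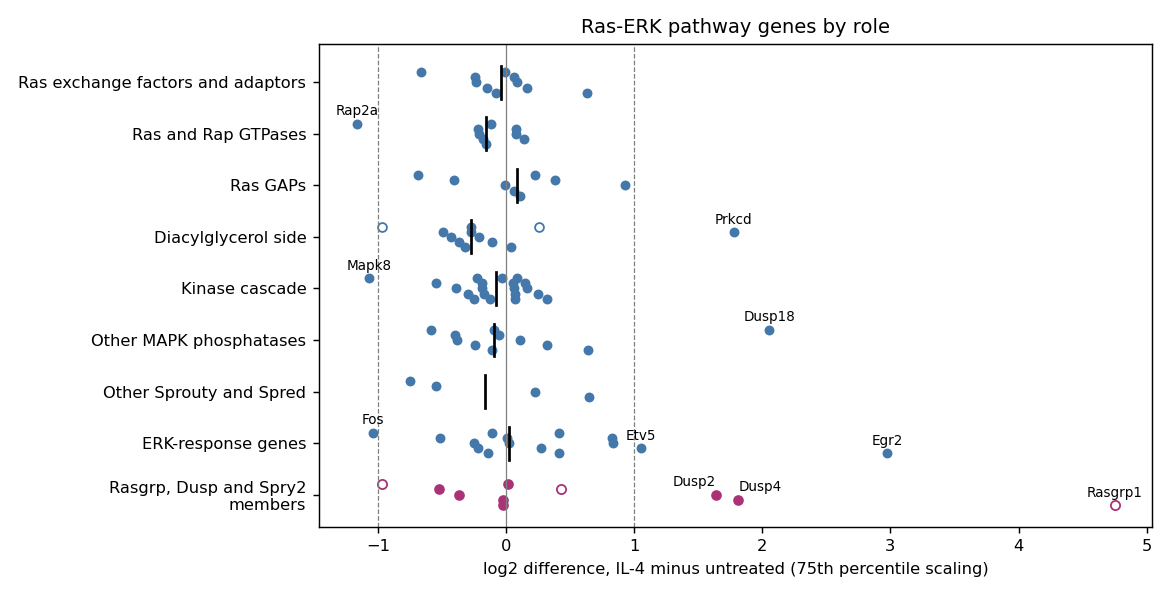
Log2 difference, IL-4 minus untreated, of the pathway genes by role (blue) and of the 10 members (purple). Black bars mark the median of each list, dashed lines 2-fold, and open circles genes well above background on 1 array only. Open circles are bounds, except for Dusp5 and Prkce, where the value is the measured difference. Egr2, Dusp18, Prkcd and Etv5 lie above 2-fold among the listed genes, and Rap2a, Mapk8 and Fos lie beyond 2-fold on the lower side.

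Because Rasgrp genes are known from other blood cells, markers of those cells were read beside them. Of 8 T cell markers, 3 were well above background untreated and 4 after IL-4, and the summed signal of the list was 1176 untreated and 1044 after IL-4, in units in which the 75th percentile of an array is 1000. The other 4, among them Cd3d and Cd3g, were too dim on both arrays, and Cd3e had a log2 difference of -0.31. Zap70, a kinase of the T cell receptor, was like Rasgrp1 well above background only after IL-4, at 29.7 untreated and 60.2 after IL-4. Its untreated signal lay just above the floor, so its log2 value of 0.92 is the measured difference and not a lower limit. Its second probe was at -0.33. The value of 0.92 passed 2-fold under 5 of the 6 other scalings, with 1.14 for median and 1.33 for quantile scaling, and was 0.09 with normexp. Of 5 B cell markers, 1 was well above background, with a summed signal of 623 untreated and 439 after IL-4, and Cd79a and Ms4a1 were well above background on neither. Of 7 mast cell markers, 4 were well above background untreated and 2 after IL-4, with a summed signal of 515 and 320.1. Cpa3 was at least 3.51-fold lower after IL-4 with the reported scaling. Its log2 bound of -1.81 was -1.51 with quantile normalization and -1.03 with normexp. All 5 platelet markers were well above background on both arrays, with a summed signal of 47369 untreated and 37499.5 after IL-4. Nearly all of this sum came from Pf4 alone, at 46517 untreated and 36908 after IL-4. Itga2b had a log2 difference of -1.44, which was -0.75, under 2-fold, with normexp. The 6 matched neutrophil markers had a summed signal of 41896 untreated and 37693 after IL-4. Most of it came from S100a9 (28895 and 26869) and S100a8 (7939.5 and 7046). The 5 eosinophil markers had a summed signal of 1041 and 1060.4. With the reported scaling 0 of the 23 markers with a difference in these lists passed 2-fold upwards, Zap70 did so under the scalings named, and the part of these cells in the values of the members was not tested. Among the 7 macrophage markers 3 were at least 2-fold lower, with Cd14 at -1.42, Fcgr1 at -1.23 and Mertk at -1.14. With median scaling 2 of these passed 2-fold (Mertk at -0.92), and with spike-in scaling 1 did, Cd14 (Fcgr1 at -0.94 and Mertk at -0.85). In such bulk RNA, fewer cells of a type and less RNA per cell cannot be told apart.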

How the data were processed

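The members and lists were chosen with earlier results of these data known. As deposited, the scanner files hold one intensity per spot from Feature Extraction 10.10.1.1, after background subtraction and spatial detrending within an array but with no scaling across arrays. Its spot flags, coded in a column of other values (0 or 1), were read unchanged. The authors also deposited 1 processed log2 value per probe and array, with medians of 0.16 untreated and 0.016 after IL-4. The scale and centring of that table are not stated, but for the member probes its differences equal the scanner differences after an offset of 0.00056, to within 6.56e-07. Names on the array, whose design used mm9, came through RefSeq accessions from a GRCm38.p6 table, which matched 27229 of 39424 probes to 20656 symbols.

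Control spots and flagged spots were left out, repeated spots were averaged per probe as log2 values, and arrays were scaled by subtracting their 75th percentile, 9.84 untreated and 9.94 after IL-4. A gene was read from its brightest probe. The spot error combines the median SD of each array over probes printed in 10 spots, within 1 log2 unit of the signal. The software's error was combined over both arrays for the 95% intervals. Bounds and counting were tested on simulated data. The genes named are all members, the 5 nearest to Rasgrp1 among genes above background on the IL-4 array only, and for each list those past 2-fold, or the largest difference where there was none. Other genes of the lists that stand in the text were picked after their values were seen, for their role, their share of a summed signal or a call that depends on the scaling. Alternatives were median, quantile, cyclic loess, spike-in and no scaling, the 75th percentile over probes that both arrays measured, normexp (offset 50) on the median pixel intensity, the processed values, flagged spots kept, no bounds, and other filters, probe rules and cutoffs. Normexp, quantile and cyclic loess used limma 3.58.1 in R 4.3.3, and all else pandas 2.3.3 and numpy 2.4.6 in Python 3.11.15. Single values of some list genes are not reported here.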

Additional observations from a re-analysis of the deposited data

How the results depend on the processing

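No paired analysis was possible because there was a single array in each condition. Rasgrp1, at a log2 bound of 4.75, stayed within its spot error under the 6 other scalings and with flagged spots kept, between 4.70 and 5.05. It was 3.18 with normexp on the median pixel intensity, 5.60 without bounds and 5.60 in the authors' processed values, which carry no bounds. The 3 members at least 2-fold higher numbered 3 in every alternative except with the analysis limited to probes that both arrays measured, where Rasgrp1 leaves by construction and 2 remained. Members at least 2-fold lower, 0 as reported, numbered 1 with the 75th percentile over probes that both arrays measured, without bounds, in the processed values and at a cutoff of 1.5-fold, and this was Spry2 each time. Pathway list genes at least 2-fold higher, 4 as reported, numbered 7 with median scaling, 7 with spike-in scaling and 10 at a cutoff of 1.5-fold, and 3 with quantile normalization, the 75th percentile over probes that both arrays measured, normexp and a log2 cutoff of 1.5. Those at least 2-fold lower, 3 as reported, numbered 0 with median scaling, spike-in scaling and a log2 cutoff of 1.5, 1 with no scaling and with normexp, 6 without bounds and in the processed values, and 7 at a cutoff of 1.5-fold. The cause was not tested, apart from filters and cutoffs that act by construction. Median and spike-in scaling move the median gene by 0.21 and 0.29.

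For the 11 other member probes, 34 of 109 values moved by more than the spot error and 0 called differences reversed. Dusp5 gave no value with normexp, where its bound changes side. The signs of Rasgrp3, the brighter Rasgrp4 probe and Dusp6 changed with the scaling. Over all genes, 564 were at least 2-fold higher and 883 lower. These were 828 and 564 with median scaling, 803 and 533 with quantile normalization, 693 and 632 with cyclic loess, 954 and 495 with spike-in scaling, 297 and 268 with normexp, 1389 and 4074 without bounds, and 1392 and 4074 in the processed values. Dim probes such as Rasgrp1 untreated and Spry2 have only bounds at this signal over background, and Dusp5 was well above it on the IL-4 array only.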
